A study of Mus musculus with 20 samples.

Results

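The HOX genes are the homeobox genes of the Hoxa, Hoxb, Hoxc and Hoxd clusters. They were taken from the deposited table by symbol, as Hox with a cluster letter and a paralogue number, with antisense and opposite-strand transcripts left out. This gave 39 of the 27179 genes in the table: 11 of Hoxa, 10 of Hoxb, 9 of Hoxc and 9 of Hoxd. A mean of at least 5 normalized counts over the 20 libraries was required for testing, which 29 of the 39 reached, among 14014 genes tested. Nearest to this threshold were Hoxa4, with a mean of 6.82, and Hoxb1, with a mean of 2.41. The rule uses no measured difference between groups. The threshold does: Hoxb8, Hoxb9, Hoxc11 and Hoxc13 averaged 4.46, 1.87, 3.98 and 0.607 in DPP4- cells and reached it only through DPP4+ cells, Hoxc13 only through those at 22 °C. They had to be higher there, so their differences in that direction are a description, with no p-value given. The counts of calls over all tested HOX genes, and their medians, are also given without them. Counts by cluster, medians by position and counts of libraries apart include them.

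RNA-seq had been done on PDGFRb+ cells isolated by flow cytometry from inguinal white adipose tissue, the subcutaneous fat of the groin, of male C57BL/6 mice. Each population was sorted by DPP4, a surface peptidase, into DPP4+ and DPP4- adipocyte progenitor cells (APCs). The 4 groups were DPP4+ and DPP4- cells of mice kept at 22 °C and both kinds of cell after 24 h of the animals at 6 °C, with 5 libraries each and 20 in all. The labels name no transgene, no genotype other than the strain and no age, and do not say that the 5 libraries of a group come from separate animals. The p-values therefore measure the spread between these libraries, which may be technical.

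HOX genes encode transcription factors that give cells of the body axis and limbs their regional identity. Within a cluster they lie in the order of their paralogue numbers, and the order along the chromosome matches the order along the body, from anterior (low numbers) to posterior (high numbers). Genes of the same number in different clusters are paralogues of close sequence. Their proteins bind DNA with partners of the PBX and MEIS families, and Polycomb and Trithorax complexes keep the clusters silent or active. Stromal cells of adult tissues keep a HOX pattern of the body region they come from, and fat depots differ in it. Here paralogues 1 to 3 are called anterior, 4 to 8 central and 9 to 13 posterior.

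The libraries held 8.49 to 18.8 M reads assigned to genes (1 M is 1e+06). Principal component 1 held 72.7% of the variance and component 2 held 10.5%. Dpp4 followed the sort, at 8546 ± 1158 normalized counts in DPP4+ and 67.9 ± 21.6 in DPP4- cells at 22 °C, and at 10035 ± 2091 and 61.3 ± 42.4 at 6 °C (SD, n = 5). Pdgfrb, the receptor used for the sort, was present in every library (2942 ± 226, 4126 ± 333, 1505 ± 80.7 and 4124 ± 543 in the order DPP4+ and DPP4- at 22 °C, DPP4+ and DPP4- at 6 °C). In cold DPP4+ cells Pdgfrb was lower than at 22 °C (log2 difference -0.96 ± 0.08 SE), and so was Pdgfra, another receptor of the family and a progenitor marker (-1.13 ± 0.08 SE). Library 2 of the cold DPP4- cells stood apart in its summed immune markers, with 1233 normalized counts against 101 to 335 in the other libraries. The deposited scaling leaves totals of 10.2 to 12.1 M in DPP4+ libraries and 15.4 to 17.3 M in DPP4- libraries. Setting the totals equal moves the median log2 difference of all tested genes between the populations from 0.02 to 0.62 at 22 °C and from 0.01 to 0.47 at 6 °C, and the share of calls that are higher in DPP4+ cells from 50.8% to 80.6% and from 50.5% to 75.4%. The HOX median lay 0.74 above that of all genes at 22 °C on the deposited scaling and 0.71 above with totals set equal, and 0.47 above at 6 °C on both. Differences between the populations below are on the deposited scaling unless stated. In bulk libraries, fewer cells of a type and less RNA per cell cannot be told apart.

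The clusters lie on 4 chromosomes of GRCm38.p6 (RefSeq): Hoxa on chromosome 6, minus strand, Hoxb on chr11:96194316-96368254, Hoxc on chr15:102921131-103036856 and Hoxd on chr2:74668225-74765142, the last 3 on the plus strand. Of the 39 genes, 22 had at least 1 start site in the RefSeq table of promoter sequences, with 24 windows in all. The 250 bases before the start are shown for 3 genes that the comparisons below turn on. Hoxa10 and Hoxb8 are posterior and central genes with large differences between the populations, and Hoxa2 is an anterior gene that was lower in DPP4+ cells at 6 °C. Capitals mark matches, on either strand, to TGATTNAT (a HOX-PBX site), CCAAT (a box bound by NF-Y), TATAAA (the core promoter box) or TGACGTCA (a site of cyclic AMP response factors).

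Hoxa2, chr6:52164832-52165081, minus strand: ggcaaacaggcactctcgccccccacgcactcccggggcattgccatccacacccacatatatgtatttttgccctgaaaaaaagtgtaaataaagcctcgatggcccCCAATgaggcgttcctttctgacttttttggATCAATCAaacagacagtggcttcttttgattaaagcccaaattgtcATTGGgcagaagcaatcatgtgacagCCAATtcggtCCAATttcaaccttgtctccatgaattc

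Hoxa10, the inner of its 2 starts, chr6:52234940-52235189, minus strand: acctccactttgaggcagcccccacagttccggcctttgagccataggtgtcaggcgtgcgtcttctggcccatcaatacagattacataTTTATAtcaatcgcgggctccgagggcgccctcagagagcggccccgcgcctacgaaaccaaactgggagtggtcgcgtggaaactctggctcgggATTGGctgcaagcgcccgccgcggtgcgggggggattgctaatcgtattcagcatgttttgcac

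Hoxb8, a start inside the gene, chr11:96281655-96281904, plus strand: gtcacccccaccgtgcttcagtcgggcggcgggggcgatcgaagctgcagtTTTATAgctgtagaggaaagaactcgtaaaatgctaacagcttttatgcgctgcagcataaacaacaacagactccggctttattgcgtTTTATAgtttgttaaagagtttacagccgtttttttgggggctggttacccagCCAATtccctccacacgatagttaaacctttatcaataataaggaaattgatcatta

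The capitals in the Hoxa2 window are 1 HOX-PBX match and 4 CCAAT matches, in the Hoxa10 window 1 TATAAA and 1 CCAAT match, and in the Hoxb8 window 2 TATAAA matches and 1 CCAAT match. Over the 24 HOX windows, 2 held TGATTNAT, which was present in 2.83% of the 32841 windows of all genes. CCAAT was in 14 of the 24 and in 33.9% of all windows, and TATAAA in 4 of the 24 and 12.4% of all. TGACGTCA was in 0 of the 24 windows and 1.55% of all. HOX windows held a median of 12 CG pairs, where windows of all genes held 6. These matches describe the letters only and were not tested for binding.

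HOX transcripts summed, at 22 °C, to 2508 ± 149 normalized counts in DPP4+ and 1406 ± 98.9 in DPP4- cells, and, at 6 °C, to 2718 ± 253 and 1608 ± 123 (SD, n = 5 libraries). This sum was thus 1.78 times higher in DPP4+ cells at 22 °C and 1.69 times higher at 6 °C, and the libraries of both populations did not overlap at either temperature. As a share of each library's total it was 0.0228% ± 0.00238 in DPP4+ and 0.00834% ± 0.000752 in DPP4- cells at 22 °C. Cold moved the sum 1.08-fold in DPP4+ and 1.14-fold in DPP4- cells, with overlapping libraries in both.

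Per kilobase of annotated exon, Hoxc10 was highest in every group, at 186 ± 15.1 (22 °C) and 267 ± 25.8 (6 °C) normalized counts per kb in DPP4+ cells and at 144 ± 18.9 and 165 ± 30.7 in DPP4- cells. Hoxc10 patterns the lumbar region and hindlimb. Hoxc6 and Hoxc8, thoracic patterning genes, came next. In DPP4+ cells at 22 °C they were at 133 ± 6.84 and 122 ± 6.31 per kb and their libraries overlapped. At 6 °C Hoxc6 rose to 238 ± 39 per kb and overlapped Hoxc10, while Hoxc8 was at 137 ± 9.31. In DPP4- cells Hoxc8 (79.4 ± 8.29 at 22 °C) stood above Hoxc6 (52.4 ± 8.82) without overlap. Below Hoxc9, at 67.8 ± 6.44 per kb in DPP4+ cells at 22 °C, the order runs Hoxa10, Hoxd8, Hoxc4, Hoxc5, Hoxb7 and Hoxb4 from 47.3 to 33.4 per kb, and no neighbours in that run were apart. In DPP4- cells at 22 °C Hoxa10 was at 6.92 ± 2.46 per kb, below Hoxc4 (46.9 ± 7.42), Hoxc5 (22.2 ± 0.711) and Hoxb4 (21.9 ± 2.23).

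**Figure D1:**
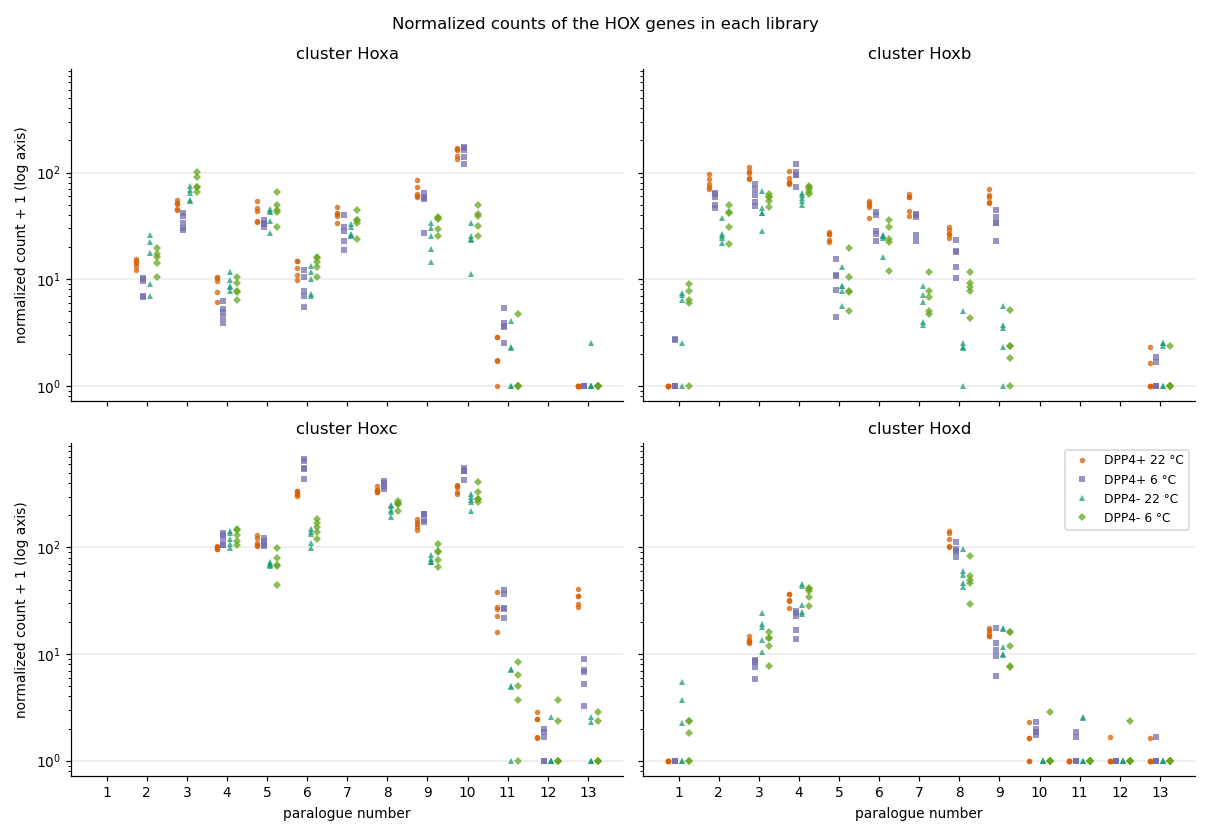
Normalized count plus 1 (log axis) of HOX genes in each of the 20 libraries, by cluster and paralogue number. Each point is a library and the colour and shape give the group. Hoxc6, Hoxc8 and Hoxc10 lie highest, the posterior Hoxd genes 10 to 13 lie at or near 0, and orange and purple points (DPP4+) separate from green ones (DPP4-) most for Hoxb7 to Hoxb9, Hoxa10, Hoxc11 and Hoxc13.

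The first comparison asks how the HOX pattern of DPP4+ cells differs from that of DPP4- cells at 22 °C. Among the 29 tested HOX genes DPP4+ cells had more of 20 and less of 2 (limma, adjusted p under 0.05). Over all 14014 genes 73.6% were called, 37.4% higher and 36.2% lower, so the 75.9% of HOX genes called in either direction was near the background, while 69.0% were called higher. The median log2 difference was 0.76 over the HOX genes and 0.02 over all genes. For 20 of the 29 the libraries were apart with DPP4+ higher, and for 0 with DPP4+ lower, where 32.1% and 30.8% of all genes were. All 8 tested Hoxb genes were higher, as were 7 of 8 Hoxc, 4 of 9 Hoxa and 1 of 4 Hoxd genes. By position, 7 of 8 posterior genes were higher (median 2.07), 10 of 15 central (median 0.62) and 3 of 6 anterior (median 0.34). Without the 4 genes that passed through DPP4+ cells, 16 of 25 were higher and 2 lower, with a median of 0.62, and 4 of 5 posterior genes were higher. The counts by cluster, the medians by position and the counts of libraries apart given above include the 4 genes.

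Hoxc13, the most distal gene of Hoxc and a regulator of hair and nail keratins, lies on chr15:102921131-102928814. It was at 26.7, 34.1, 28.2, 39.5 and 34.2 normalized counts in the DPP4+ libraries and at 0, 0, 0, 1.54 and 1.29 in the DPP4- libraries. Every DPP4+ library lay above every DPP4- library, and the DPP4- libraries held 2 reads in all. The means differed 57.7-fold (counting interval 16.2 to 491), and the log2 difference of 4.55 ± 0.41 SE rests on the pseudocount of 1.

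Hoxb9, which patterns the thoracic skeleton (chr11:96271330-96276595), was at 60.3, 58.3, 50.7, 68.9 and 51.6 in DPP4+ cells and at 2.70, 0, 2.52, 4.61 and 1.29 in DPP4- cells. The groups were far apart, with 437 reads against 8, a ratio of 26.1 and a log2 difference of 4.40 ± 0.39 SE. Its neighbour Hoxb8 (chr11:96279401-96285325), known from progenitors of the blood and from grooming behaviour in mutant mice, had 29.8, 25.5, 25.3, 28.2 and 23.3 counts in DPP4+ and 4.05, 1.50, 1.26, 0 and 1.29 in DPP4- libraries. Here the ratio was 16.3 on 199 reads against 6, and the log2 difference 3.57 ± 0.35 SE. Hoxb7 (chr11:96285604-96290163), next in the cluster, had 61.6, 57.6, 42.7, 58.3 and 38.5 counts against 2.70, 3, 7.56, 6.14 and 5.14. It was 10.5-fold higher in DPP4+ cells, with a log2 difference of 3.21 ± 0.28 SE (adjusted p = 2.47e-10). Of these 3 adjacent genes, Hoxb8 and Hoxb9 had few reads in DPP4- cells, while Hoxb7 had 18, with reads in all 5 libraries.

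Hoxa10, a gene of the lumbar spine and the uterus (chr6:52231197-52240854), was at 170, 161, 134, 167 and 141 counts in DPP4+ cells and at 23.0, 22.5, 32.7, 24.6 and 10.3 in DPP4- cells. No library overlapped, the ratio was 6.84 and the log2 difference 2.80 ± 0.21 SE (adjusted p = 2.89e-11). Hoxc11 (chr15:102954526-102956701), a hindlimb gene, was lower in level and more variable, at 37.3, 25.5, 15.2, 21.9 and 26.9 against 4.05, 6.01, 6.30, 0 and 3.86. Its ratio was 6.28 and its log2 difference 2.61 ± 0.51 SE. Hoxa9, the neighbour of Hoxa10 and a regulator of blood progenitors, was 2.86-fold higher (1.53 ± 0.23 SE). Hoxc9 was 2.19-fold higher (1.12 ± 0.11 SE) and Hoxc10 only 1.29-fold higher (0.37 ± 0.11 SE), although its level was the highest. Hoxd9 was at 15 ± 1.24 in DPP4+ and 12.3 ± 3.88 in DPP4- cells and did not pass (log2 difference 0.31, 95% interval -0.30 to 0.92).

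Among central genes the largest differences after Hoxb8 and Hoxb7 were in Hoxb5, Hoxc6, Hoxd8 and Hoxb6, with log2 differences of 1.58, 1.35, 1.06 and 1.04. Hoxb5, an early organ patterning gene, was at 22.4, 26.9, 25.3, 25.7 and 21.1 counts in DPP4+ cells and at 6.75, 12.0, 7.56, 4.61 and 7.72 in DPP4- cells, 3.14-fold apart. Hoxc6 was at 313, 335, 300, 313 and 338 against 98.6, 134, 110, 140 and 149, a narrow group well above a wider one, with a ratio of 2.53 (1.35 ± 0.12 SE, adjusted p = 7.64e-10). Hoxc5 (0.71), Hoxc8 (0.62), Hoxb4 (0.60) and Hoxa7 (0.51) were higher by less. Hoxa4, Hoxa5, Hoxa6 and Hoxd4 did not pass, with log2 differences from -0.10 to 0.37. Hoxc4 was 98.8 ± 2.45 in DPP4+ and 121 ± 19.1 in DPP4- cells (-0.27 ± 0.12 SE, adjusted p = 0.0396).

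In the anterior genes, Hoxb2, a hindbrain gene, was at 80.2 ± 10.6 against 26.2 ± 6.04 (1.6 ± 0.19 SE), and Hoxb3 at 96.7 ± 10.5 against 43.9 ± 14.1 (1.17 ± 0.17 SE). Hoxa3, a gene of the thymus and parathyroid, was lower in DPP4+ cells, at 48.5 ± 4.78 against 62.3 ± 9.13, with overlapping libraries (-0.35 ± 0.14 SE, adjusted p = 0.0329). Hoxa2 and Hoxd3 did not pass, at -0.07 ± 0.30 and -0.28 ± 0.25 SE.

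With the totals set equal, 25 HOX genes were higher and 0 lower, and Hoxa3 (0.25) and Hoxc4 (0.34) changed sign. Their calls were also lost when single libraries were left out: for Hoxa3 library 3, 4 or 5 of DPP4- or 2 or 3 of DPP4+ cells, and for Hoxc4 library 3, 4 or 5 of DPP4- or 1, 2, 3 or 4 of DPP4+ cells, with differences from -0.41 to -0.28 and from -0.34 to -0.21 over all fits that left out libraries. TMM scaling and no filter also ended both calls, and a replicate block that of Hoxc4. The call of Hoxa7 was lost without DPP4+ library 3 (0.45 to 0.57 without single libraries) and with quantile normalization (0.20).

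Differences between the populations tended to be larger at higher paralogue numbers. Across genes, Pearson's r between the log2 difference at 22 °C and the paralogue number was 0.61 over the 29 genes, 0.75 in Hoxa (9 genes), 0.82 in Hoxb (8 genes), 0.78 in Hoxc (8 genes) and 0.76 in Hoxd (4 genes). At 6 °C it was 0.69 over all and 0.87, 0.72, 0.64 and 0.76 in the same order. Spearman's rho over all was 0.53 and 0.72. Without the 4 genes that passed the threshold through DPP4+ cells, r was 0.39 at 22 °C and 0.61 at 6 °C over 25 genes. These 4 genes had to be higher in DPP4+ cells and lie at high numbers of Hoxb and Hoxc. The values of r within Hoxb and Hoxc include them, so they are partly fixed by the threshold, and were not computed without them. The genes share libraries and cluster neighbours and are not independent, the numbers of Hoxd are few, and no p-value is given. The relation was not smooth. In Hoxb the lowest difference was at Hoxb4 (0.60), between Hoxb2 (1.6) and Hoxb9 (4.40), and in Hoxc the difference at Hoxc10 (0.37) was below those of Hoxc6 (1.35) and Hoxc11 (2.61).

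**Figure D2:**
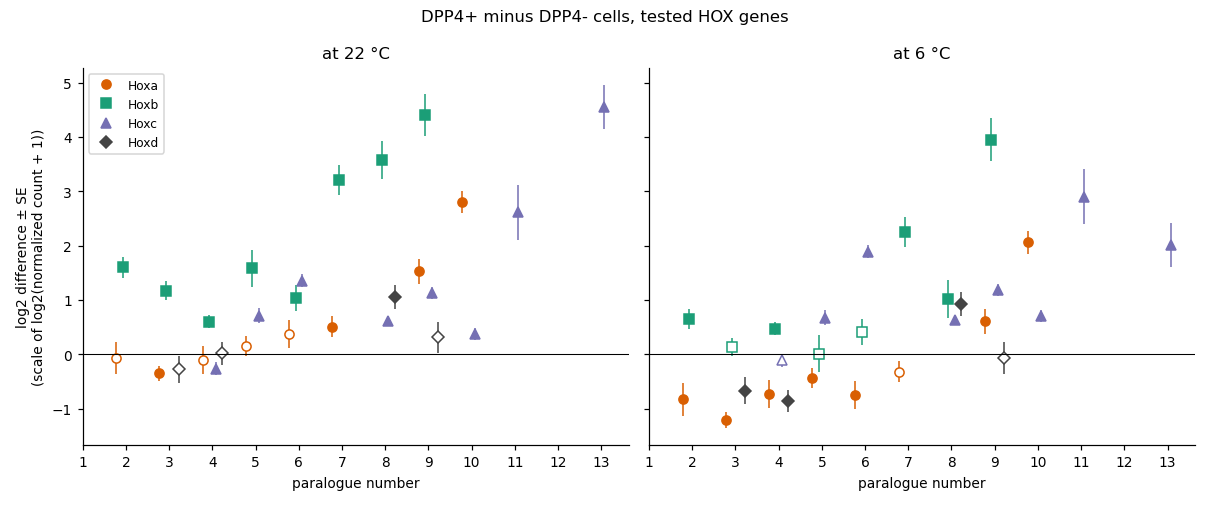
Log2 difference of DPP4+ minus DPP4- cells (± SE, on the scale of log2 of the normalized count plus 1) of tested HOX genes against paralogue number, at 22 °C on the left and at 6 °C on the right. Colour and shape give the cluster and filled symbols passed the limma test. Hoxb7, Hoxb8, Hoxb9, Hoxa10, Hoxc11 and Hoxc13 stand highest at 22 °C, and at 6 °C Hoxa2 to Hoxa6 lie below 0.

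After 24 h at 6 °C, 15 HOX genes were higher in DPP4+ than in DPP4- cells and 8 were lower. Of all genes 72.8% were called, 36.8% higher and 36.0% lower, and the HOX median was 0.47 against 0.01 for all genes. The libraries were apart for 10 genes with DPP4+ higher and 5 with DPP4+ lower, against 28.3% and 27% of all genes. Of the posterior genes 7 of 8 were higher and 0 lower, the same counts as at 22 °C, while 4 of 6 anterior genes were lower and 1 higher. In Hoxa 6 of 9 genes were lower and 2 higher, in Hoxb 5 of 8 higher, in Hoxc 7 of 8 higher and in Hoxd 1 higher and 2 lower of 4. Without the 4 genes that passed through DPP4+ cells, 11 of 25 were higher and 8 lower, and the median was 0.13. Of the posterior genes 4 of 5 were then higher. The other counts by cluster and position above, and those of libraries apart, include the 4 genes.

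Hoxb9 had the largest log2 difference at 6 °C, at 44.0, 37.5, 33.0, 32.4 and 21.7 counts in DPP4+ and 1.34, 4.09, 1.35, 0 and 0.823 in DPP4- cells, with no overlap (ratio 22.2, log2 3.95 ± 0.39 SE). Hoxc11 had 25.9, 25.6, 35.9, 39.2 and 20.9 counts against 4.02, 2.73, 5.40, 0 and 7.41, also apart, for a ratio of 7.55 (2.90 ± 0.51 SE). Hoxb7 had 39.7, 25.0, 36.9, 39.2 and 21.7 counts against 10.7, 6.82, 4.05, 3.76 and 5.76, a ratio of 5.22 (2.25 ± 0.28 SE). All 3 separated the populations at both temperatures.

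Hoxa10 was at 168, 140, 172, 161 and 119 counts in DPP4+ and 30.8, 24.5, 37.8, 39.5 and 48.6 in DPP4- cells at 6 °C, 4.19-fold apart (2.06 ± 0.21 SE, adjusted p = 5.96e-09). Hoxc13 was at 6.04, 7.89, 5.83, 4.26 and 2.24 against 0, 1.36, 0, 1.88 and 0. The gap between these groups was small, and with 2 reads in DPP4- cells the 8.09-fold difference of means had counting limits of 2.69 and 90.5 (log2 2.01 ± 0.41 SE). Hoxc6 was at 681, 556, 544, 643 and 441 against 156, 120, 185, 139 and 170, well apart, with a ratio of 3.72 (1.89 ± 0.12 SE, adjusted p = 1.6e-12). Hoxc9 (1.18), Hoxd8 (0.92), Hoxc10 (0.70), Hoxc5 (0.67), Hoxb2 (0.65), Hoxc8 (0.63), Hoxa9 (0.61) and Hoxb4 (0.47) were higher by less. Hoxb8, at 22.4, 9.20, 17.5, 17.1 and 12.0 against 6.70, 8.18, 10.8, 7.53 and 3.29, now overlapped between the populations (1.02 ± 0.35 SE).

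Lower genes in DPP4+ cells included Hoxa3 (33.7 ± 5.38 against 79.6 ± 14.5, -1.21 ± 0.14 SE), Hoxd4 (-0.86 ± 0.21 SE), Hoxa2 (-0.83 ± 0.30 SE), Hoxa6 (-0.75 ± 0.26 SE), Hoxa4 (-0.73 ± 0.26 SE), Hoxd3 (-0.67 ± 0.25 SE) and Hoxa5 (-0.44 ± 0.18 SE). Not called were Hoxa7, Hoxb3, Hoxb5, Hoxb6, Hoxc4 and Hoxd9, with log2 differences from -0.32 to 0.41. The exons of Hoxd3 and Hoxd4 share 62.3% and 52.3% of their length with each other or with Gm28230 on the same strand, so their reads cannot be told apart in full.

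With the totals set equal, 18 HOX genes were higher and 2 lower at 6 °C. Hoxa5 (0.01) and Hoxc4 (0.36) then changed sign, the calls of Hoxa2, Hoxa4, Hoxa6, Hoxd3 and Hoxd4 were lost, and that of Hoxa3 remained. Quantile normalization ended the calls of Hoxa2 (-0.65), Hoxa4 (-0.37), Hoxa6 (-0.51) and Hoxd3 (-0.40). Hoxa4 was not called on the whole reads by edgeR (adjusted p = 0.0581) or DESeq2, and Hoxa5 not with library weights, no filter or TMM scaling. Leaving out single libraries ended the calls of Hoxa5 (library 1 or 5 of DPP4-, 2, 3 or 5 of DPP4+; range -0.58 to -0.31), Hoxa9 (library 2 of either population; 0.43 to 0.84) and Hoxd3 (library 2 of DPP4-, 3 of DPP4+; -0.84 to -0.48), and that of Hoxb8 was lost without DPP4- libraries 2 and 5 together (0.80).

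In DPP4+ cells 11 of 29 HOX genes fell and 2 rose after 24 h at 6 °C (limma). Over all genes 44.0% were called, 22.1% higher and 21.9% lower, and the median was -0.57 for HOX genes and 0.00 for all genes. Groups were apart for 11 genes with the cold lower and for 3 with the cold higher, against 18.5% and 18.4% of all genes. All 4 clusters had falls: 4 of 9 Hoxa, 4 of 8 Hoxb, 2 of 4 Hoxd and 1 of 8 Hoxc genes. Both rises were in Hoxc. Of the 6 anterior genes 5 fell (median -0.68), of the 15 central genes 5 fell and 1 rose (median -0.57), and of the 8 posterior genes 1 fell and 1 rose (median -0.22). Without the 4 genes that passed the threshold through DPP4+ cells, 10 of 25 fell and 2 rose (median -0.53).

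Hoxc13 went from 26.7 to 39.5 counts in the 22 °C libraries to 2.24 to 7.89 in the cold, 6.19-fold lower with no overlap (-2.49 ± 0.41 SE). It is among the 11 but passed the threshold of a mean of 5 only through the 22 °C group, so this is a description. Hoxb5 had 6.90, 9.86, 14.6, 3.41 and 9.72 counts in the cold, all below the lowest 22 °C value of 21.1, a 2.73-fold fall (-1.46 ± 0.34 SE, adjusted p = 0.000994). In cold DPP4- cells Hoxb5 had 6.70, 9.54, 4.05, 18.8 and 6.58 counts, overlapping those of cold DPP4+ cells. The means were 9.14 ± 5.75 and 8.89 ± 4.12, and the log2 difference of DPP4+ minus DPP4- was 0.01 with a 95% interval from -0.71 to 0.72.

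The other falls were smaller: Hoxa4 (-0.81 ± 0.26 SE), Hoxd3 (-0.79 ± 0.25 SE), Hoxd4 (-0.70 ± 0.21 SE), Hoxb3 (-0.67 ± 0.17 SE), Hoxb6 (-0.61 ± 0.24 SE), Hoxa7 (-0.57 ± 0.19 SE), Hoxb2 (-0.53 ± 0.19 SE) and Hoxa3 (-0.52 ± 0.14 SE). For Hoxb8 and Hoxb9 every cold library lay below every 22 °C library, at 15.6 ± 5.16 and 33.7 ± 8.16 against 26.4 ± 2.59 and 58.0 ± 7.40, but neither passed in limma (-0.78 ± 0.35 and -0.79 ± 0.39 SE). Hoxb7 did not pass either (-0.67 ± 0.28 SE). On the whole reads edgeR called these 3 lower, and also Hoxa2 and Hoxa6, for 16 falls in all. Hoxa10, Hoxa9 and Hoxc11, posterior genes at higher levels in DPP4+ than in DPP4- cells at 22 °C, did not pass (-0.03 ± 0.21, -0.41 ± 0.23 and 0.23 ± 0.51 SE).

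Hoxc6 rose 1.79-fold in cold DPP4+ cells, from a highest 22 °C value of 338 to a lowest cold value of 441 (0.82 ± 0.12 SE, adjusted p = 7.82e-06). Hoxc10, known as a repressor of browning in subcutaneous fat, rose 1.44-fold, from 382, 377, 316, 367 and 333 to 555, 519, 522, 529 and 426, again with no overlap (0.52 ± 0.11 SE, adjusted p = 0.00033). Hoxc4 was also apart (98.8 ± 2.45 and 118 ± 14.6) without passing (0.25 ± 0.12 SE). Hoxc8 and Hoxc9, at 0.17 ± 0.08 and 0.23 ± 0.11 SE, did not pass in limma and were called higher by edgeR, for 4 rises.

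Quantile normalization left 4 of the 11 falls and gave 5 rises, with a HOX median of -0.35. The calls lost were those of Hoxa3, Hoxa4, Hoxa7, Hoxb2, Hoxb6, Hoxd3 and Hoxd4, with differences from -0.62 to -0.30. Hoxb6 was also not called with no filter or in limma without trend. The calls of Hoxa7, Hoxb2 and Hoxb6 were each lost when single libraries were left out (for Hoxa7 DPP4+ library 3 at 22 °C or 1 or 4 at 6 °C; for Hoxb2 3 or 4 at either temperature; for Hoxb6 1, 2, 3 or 4 at 22 °C or 2, 4 or 5 at 6 °C), with differences from -0.71 to -0.44, -0.58 to -0.47 and -0.72 to -0.50.

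**Figure D3:**
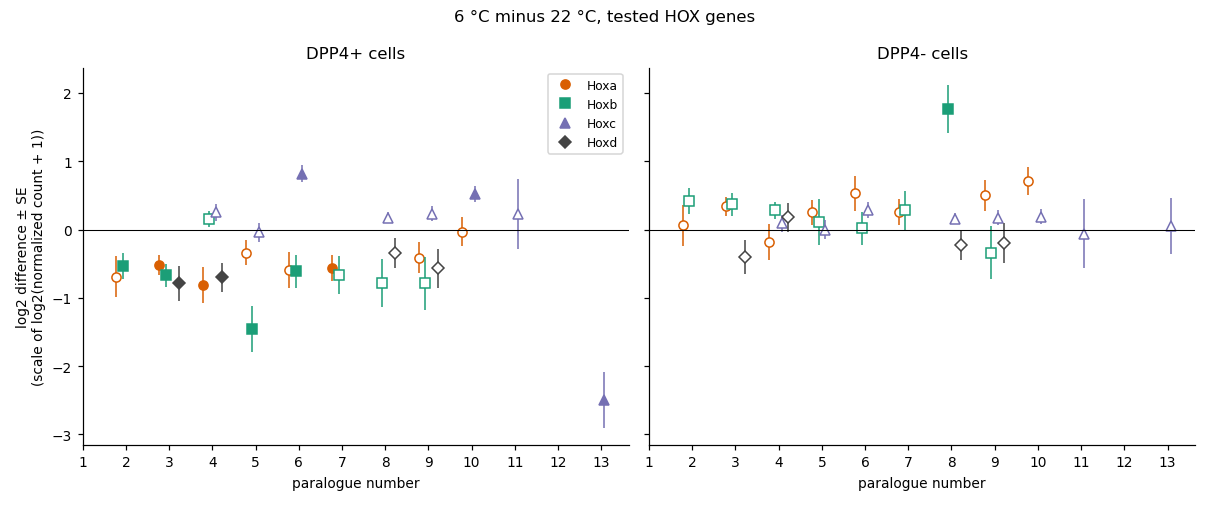
Log2 difference of 6 °C minus 22 °C (± SE, on the scale of log2 of the normalized count plus 1) of tested HOX genes against paralogue number, in DPP4+ cells on the left and DPP4- cells on the right. Filled symbols passed the limma test. In DPP4+ cells Hoxc13 and Hoxb5 lie lowest and Hoxc6 and Hoxc10 rose, and in DPP4- cells Hoxb8 is the only filled symbol.

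In DPP4- cells 1 HOX gene rose and 0 fell in the cold (limma). Of all genes 4.81% were called, 1.83% higher and 2.98% lower, and the HOX median was 0.17. Without the 4 genes that passed the threshold through DPP4+ cells, 0 of 25 rose and 0 fell, with a median of 0.18. The libraries were apart for 0 of the 29, and for 4.65% of all genes. With the totals set equal 80.1% of all calls were higher in the cold, against 38.0% on the deposited scaling. The gene was Hoxb8, from 6 reads in the 5 libraries at 22 °C to 27 reads at 6 °C, or from 1.62 ± 1.48 to 7.30 ± 2.71 normalized counts (4.51-fold, 1.77 ± 0.35 SE, adjusted p = 0.00398). The ranges overlapped, since 4.05 was the highest value at 22 °C and 3.29 the lowest at 6 °C. A fit on the 10 DPP4- libraries alone did not call it, while edgeR and DESeq2 did, and its difference was 1.47 to 2.06 when single libraries were left out. Hoxa10 was at 22.6 ± 8.04 at 22 °C and 36.3 ± 9.10 at 6 °C and did not pass (0.71 ± 0.21 SE, adjusted p = 0.0549), and was called by DESeq2, with the totals set equal, and in limma without DPP4- library 3 at 22 °C, DPP4- library 2 at 6 °C or DPP4+ library 5 at 6 °C (range 0.46 to 0.86). Hoxc10, which rose in DPP4+ cells, had a log2 difference of 0.19 here, with a 95% interval from -0.03 to 0.42. Its cold effect in DPP4+ minus that in DPP4- cells was 0.33 and was not called (limma, adjusted p = 0.103). With library weights, and in some fits that left out libraries, that difference was called.

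Whether the effect of cold differed between the populations was tested as the difference of the cold effects, DPP4+ minus DPP4-. It was negative for 11 HOX genes and positive for 1, where 31.4% of all genes were called, 15.8% positive and 15.6% negative. The HOX median was -0.63 and that of all genes 0.01. Without the 4 genes that passed the threshold through DPP4+ cells, Hoxb8 and Hoxc13 among them, 9 of 25 were negative and 1 positive, with a median of -0.63. With the totals set equal the medians were -0.79 and -0.14, and 27.1% of all calls were positive, against 50.3% on the deposited scaling. Negative differences included Hoxb8 (-2.55 ± 0.49 SE), Hoxc13 (-2.53 ± 0.57 SE), Hoxb5 (-1.57 ± 0.48 SE), Hoxa6 (-1.12 ± 0.37 SE), Hoxb3 (-1.04 ± 0.25 SE), Hoxb2 (-0.95 ± 0.27 SE), Hoxa9 (-0.91 ± 0.33 SE), Hoxd4 (-0.89 ± 0.29 SE), Hoxa3 (-0.86 ± 0.20 SE) and Hoxa7 (-0.83 ± 0.27 SE). Hoxc6 was the positive one (0.54 ± 0.17 SE, adjusted p = 0.0212). All 5 comparisons use the same 4 groups of libraries, so each group enters several of them and their calls are not independent of each other.

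For Hoxc13, which had 2 reads in DPP4- cells at each temperature, edgeR and DESeq2 did not call the difference. Setting the totals equal gave 14 negative and 0 positive genes, with a difference for Hoxc6 of 0.40, and quantile normalization gave 5 negative genes, with the calls of Hoxa6, Hoxa7, Hoxa9, Hoxb2, Hoxb5 (-1.24) and Hoxd4 lost. The call of Hoxa9 was also lost in edgeR (adjusted p = 0.0597), with library weights and with no filter, and without DPP4- library 2 or 5 at 22 °C, DPP4- library 1, 3 or 4 at 6 °C, DPP4+ library 1 or 5 at 22 °C or DPP4+ library 5 at 6 °C (range -1.09 to -0.69), and that of Hoxd4 without DPP4+ library 4 at 6 °C (nearest to 0, -0.75). Hoxa7 was lost without DPP4- libraries 2 and 5 at 6 °C together (nearest to 0, -0.68).

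**Figure D4:**
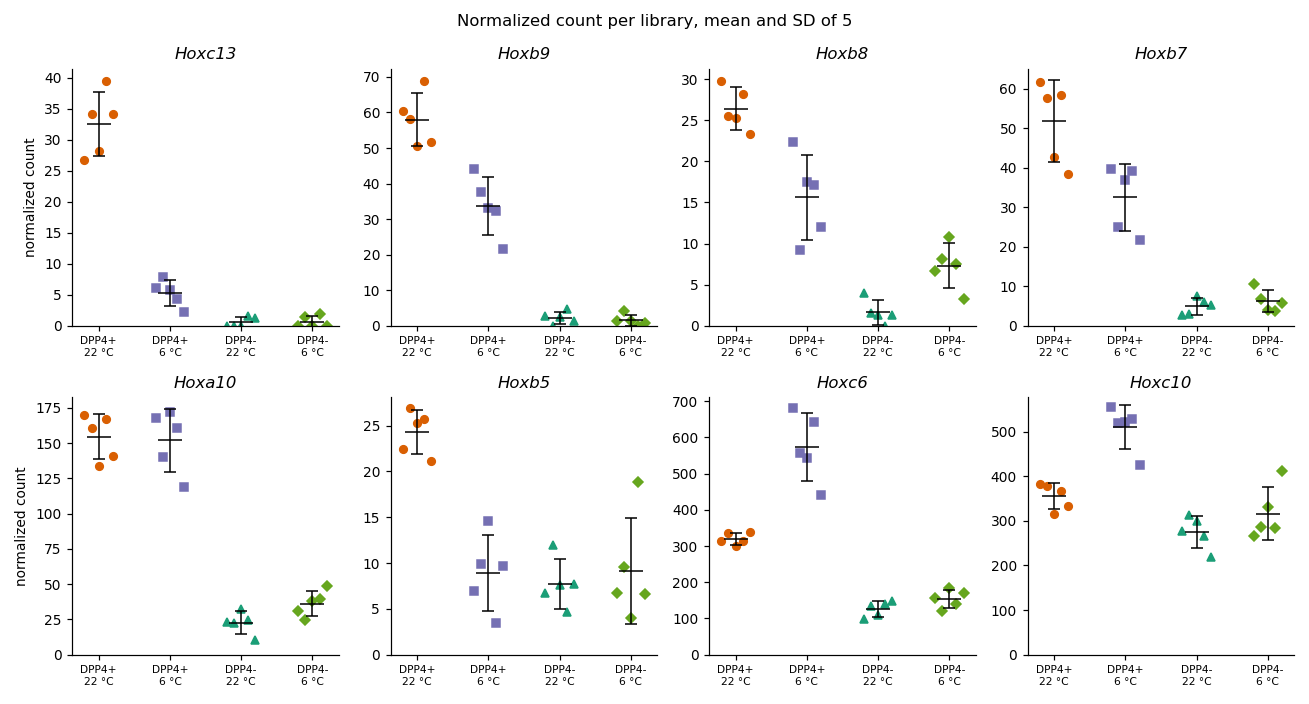
Normalized count of 8 HOX genes in each library by group, with the mean and SD of 5 libraries as a bar and whiskers; each panel has its own axis from 0. Hoxc13, Hoxb9, Hoxb8, Hoxb7 and Hoxa10 separate DPP4+ from DPP4- cells at 22 °C, Hoxb5 falls in cold DPP4+ cells, and Hoxc6 and Hoxc10 rise there.

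Summed by cluster, Hoxb fell from 470 ± 42.7 to 335 ± 54.1 normalized counts in cold DPP4+ cells, Hoxa from 402 ± 35.3 to 323 ± 24.8 and Hoxd from 180 ± 20.2 to 132 ± 12.4, while Hoxc rose from 1455 ± 78.5 to 1928 ± 191 (SD, n = 5). The libraries were apart for Hoxa, Hoxc and Hoxd and overlapped for Hoxb. In DPP4- cells the sums of Hoxa went from 218 ± 28.7 to 273 ± 28.6 and of Hoxb from 170 ± 20.8 to 213 ± 13.8, the latter apart. Summed by position, the anterior genes fell from 268 ± 15.1 to 169 ± 13.5 in DPP4+ cells with no overlap, below the 213 ± 19.4 of cold DPP4- cells. With the totals set equal this last order changed sign (log2 ratio 0.14).

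As a share of the summed HOX counts, which are not scaled by length, Hoxc went from 58.0% ± 1.51 at 22 °C to 70.9% ± 0.979 in cold DPP4+ cells, and was 63.8% ± 2.37 and 62.7% ± 2.59 in DPP4- cells. Hoxb went from 18.7% ± 1.10 to 12.3% ± 0.973 in DPP4+ cells, near the 12.1% ± 0.987 and 13.3% ± 0.849 of DPP4- cells. The anterior share dropped from 10.7% ± 0.660 to 6.27% ± 0.700 in DPP4+ cells and was 12.8% ± 1.09 and 13.3% ± 1.32 in DPP4- cells. Shares within a library do not depend on its scaling. The posterior share was 34.9% ± 1.16 and 36.4% ± 1.25 in DPP4+ cells against 29.8% ± 2.75 and 30.4% ± 2.49 in DPP4- cells.

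**Figure D5:**
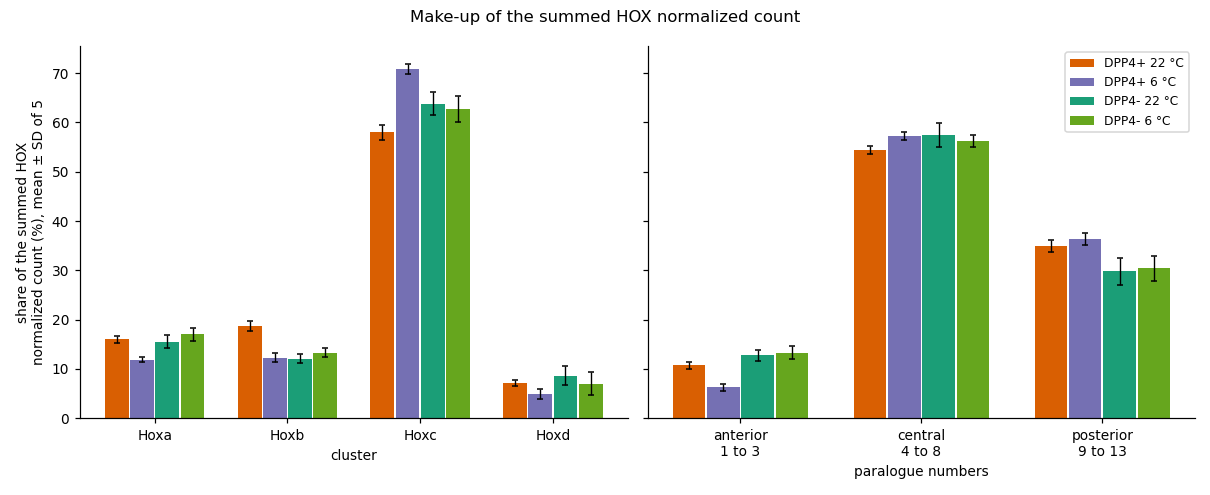
Share of the summed HOX normalized count (%, mean ± SD of 5 libraries) by cluster on the left and by paralogue number on the right, in the 4 groups. In cold DPP4+ cells Hoxc makes up 70.9% of the sum and the anterior genes 6.27%, against 58.0% and 10.7% at 22 °C.

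Paralogues of the same number were called in opposite directions in several cases. Between the populations at 22 °C these were Hoxb3 (1.17) and Hoxa3 (-0.35), and Hoxb4 (0.60) and Hoxc4 (-0.27). At 6 °C they were Hoxb2 (0.65) and Hoxa2 (-0.83), Hoxb4 (0.47) with both Hoxa4 (-0.73) and Hoxd4 (-0.86), Hoxc5 (0.67) and Hoxa5 (-0.44), and Hoxc6 (1.89) and Hoxa6 (-0.75). The cold effect in DPP4+ cells split Hoxc6 (0.82) and Hoxb6 (-0.61), and the difference of the cold effects split Hoxc6 (0.54) and Hoxa6 (-1.12). With the totals set equal none of these pairs between the populations or in the difference was called in opposite directions, since the calls of Hoxa3, Hoxc4, Hoxa2, Hoxa4, Hoxa5, Hoxa6 and Hoxd4 between the populations and of Hoxc6 in the difference were lost or changed sign. The pair of the cold effect was called under that scaling but not with quantile normalization, where Hoxb6 was lost. Paralogue group 6 was thus summed at 378 ± 14.5 at 22 °C and 611 ± 102 at 6 °C in DPP4+ cells, of which Hoxc6 made up 320 ± 16.5 and 573 ± 94.0. Group 4 overlapped in every comparison, at 224 ± 10.9, 238 ± 31.1, 217 ± 29.4 and 239 ± 15.6 in DPP4+ and then DPP4- cells, 22 °C before 6 °C.

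The 10 genes below the threshold were at or near the detection limit. Over all 20 libraries Hoxa13 had 1 read, Hoxd12 and Hoxd13 had 2 each, Hoxd11 had 4, Hoxb13 and Hoxd1 had 9 each, Hoxd10 had 11, Hoxc12 had 16, Hoxa11 had 31 and Hoxb1 had 39. The terminal genes of Hoxd, which pattern the digits and genitalia, were thus barely present, while their neighbours Hoxd8 and Hoxd9 had means of up to 120 ± 19.1 and 15 ± 1.24. Hoxb1, the hindbrain gene at the other end of its cluster, had 0 reads in the 5 DPP4+ libraries at 22 °C, while those of DPP4- cells held 14. A floor of 3 reads over the DPP4+ group lay 9.68-fold below the DPP4- mean, which leaves out the counting error of the 14 reads. Hoxb1 had 4 reads against 21 at 6 °C, and 1 DPP4- library at each temperature was at 0. Hoxd1, also anterior, had 0 reads in both DPP4+ groups against 6 reads in DPP4- cells at 22 °C and 3 at 6 °C. The same floor lay 4.21-fold below its DPP4- mean at 22 °C, again without the counting error of the 6 reads. Hoxa11 had 17 reads in cold DPP4+ against 2 in cold DPP4- cells, and the means differed 3.69-fold (counting interval 1.29 to 48.4).

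HOX proteins act with partners of the TALE family, of which 11 genes were listed and tested. DPP4+ cells had more of 4 and less of 4 at 22 °C, and in cold DPP4+ cells 3 rose and 1 fell. Of all tested genes 37.4% were higher and 36.2% lower at 22 °C, and 22.1% rose and 21.9% fell in cold DPP4+ cells. With cold in DPP4- cells 4.81% were called. The difference of the cold effects was positive for 15.8% and negative for 15.6%. Counts in this list and in those below are to be read beside these shares. Pbx2 (0.84 ± 0.12 SE) was higher and Tgif1 (-0.80 ± 0.10 SE) and Tgif2 (-0.87 ± 0.13 SE), repressors of the family, were lower at 22 °C. In cold DPP4+ cells Meis1 rose from 194 ± 4.71 to 254 ± 20.9 (0.38 ± 0.11 SE) and Pknox1 by 0.31 ± 0.09 SE. Pknox2 fell from 299 ± 21.2 to 161 ± 8.78 (-0.89 ± 0.09 SE) and was at 312 ± 40.3 and 315 ± 32.1 in DPP4- cells. The difference of the cold effects was called for 1 gene in each direction, the negative one being Pknox2 (-0.90 ± 0.12 SE).

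DPP4+ cells at 22 °C had more of 15 of the 34 Polycomb genes and less of 6 (median 0.15), with Phf19 (2.46 ± 0.22 SE), Bmi1 (1.22 ± 0.09 SE) and Cbx6 (0.90 ± 0.07 SE) among the higher and Asxl1 (-0.83 ± 0.07 SE) among the lower. With cold, 9 rose and 8 fell in DPP4+ cells and 0 were called in DPP4- cells. Jarid2, an accessory subunit of Polycomb repressive complex 2, rose from 272 ± 5.62 to 1041 ± 158 in cold DPP4+ cells (1.92 ± 0.09 SE, adjusted p = 3.44e-14) and was 351 ± 42.9 and 406 ± 36.2 in DPP4- cells. Cbx6, a chromobox subunit of complex 1, fell from 1844 ± 58.7 to 868 ± 58.6 (-1.09 ± 0.07 SE), and Phf19 fell by 1.35 on the log2 scale. Of 20 Trithorax and H3K27 demethylase genes 9 were higher and 9 lower at 22 °C, with Kdm6b, an H3K27 demethylase, at -1.57 ± 0.11 SE, Kmt2c, a histone methyltransferase, at -1.05 ± 0.09 SE, Ash2l at 0.97 ± 0.09 SE and Psip1 at 0.57 ± 0.06 SE. With cold, 1 of them rose and 2 fell in DPP4+ cells.

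Upstream patterning and retinoid genes, of which 19 of 28 were tested, had 8 higher and 8 lower at 22 °C. Aldh1a3, an enzyme that makes retinoic acid, was higher in DPP4+ cells (5.43 ± 0.25 SE), and Egr2, a hindbrain patterning factor, was lower (-2.48 ± 0.14 SE). In cold DPP4+ cells 5 rose and 5 fell, with Crabp1 (2.50 ± 0.35 SE) and Rdh10 (1.82 ± 0.22 SE) rising and Dhrs3 (-1.06 ± 0.12 SE) and Aldh1a1 (-0.79 ± 0.09 SE) falling, all genes of retinoid handling. Of 44 tested transcription factors of limb, trunk and depot position, 21 were higher and 13 lower at 22 °C. Irx5 (2.75 ± 0.16 SE) was higher and Tbx2 (-4.39 ± 0.15 SE) and Meox1 (-4.79 ± 0.28 SE) lower in DPP4+ cells. In cold DPP4+ cells 10 rose and 10 fell, Twist2 by 1.39 ± 0.08 SE upward and Meox2 (-1.87 ± 0.20 SE) and Prrx2 (-1.61 ± 0.14 SE) downward.

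Protein-coding genes that flank the clusters were used to see whether the surroundings moved with them. At 22 °C DPP4+ cells had more of 5 and less of 7 of the 14 tested (median -0.15), and in cold DPP4+ cells 1 rose and 3 fell (median -0.05). Jazf1, beside Hoxa, was lower in DPP4+ cells at both temperatures (-1.4 ± 0.13 and -2.11 ± 0.13 SE) and fell in the cold in both DPP4+ (-1.29 ± 0.13 SE) and DPP4- cells (-0.58 ± 0.13 SE). Snx10, also on the side of Hoxa, was lower at 22 °C (-1.08 ± 0.09 SE), and Cbx5 (0.58 ± 0.07 SE) beside Hoxc and Mtx2 (1.02 ± 0.09 SE) beside Hoxd were higher. In cold DPP4+ cells Calcoco1 (-0.63 ± 0.08 SE) and Skap2 (-0.39 ± 0.08 SE) also fell and Lnpk rose (0.26 ± 0.06 SE). Of 22 listed noncoding genes of the clusters 14 were in the table and 3 were tested. The one called, 5730596B20Rik in the Hoxa3 region, was lower in DPP4+ cells (31.4 ± 1.84 against 52.8 ± 3.56 at 22 °C, -0.73 ± 0.15 SE) and fell in the cold there (-0.63 ± 0.15 SE), as did Hoxa3. Exons on the opposite strand overlap 25.4% of Hoxa3, 52.9% of Hoxb3, 27.3% of Hoxb2 and 20.4% of Hoxa7, and since the counting is not stated to use strand, their reads cannot be told apart from those of the partner. Gm53, a noncoding gene between Hoxb13 and Hoxb9, was too low for testing, at 15.6 ± 4.19 in DPP4+ cells at 22 °C, 2.02 ± 1.20 in the cold and 0.811 ± 1.16 and 0.273 ± 0.610 in DPP4- cells.

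All 9 tested markers of DPP4+ progenitors were higher in DPP4+ cells at both temperatures, beside 37.4% (22 °C) and 36.8% (6 °C) of all tested genes. For Dpp4 the sort itself fixed this outcome. Bmp7 averaged 1.72 ± 1.80 (22 °C) and 0.543 ± 0.743 (6 °C) in DPP4- cells and reached the threshold only through DPP4+ cells. The part of Dpp4 and Bmp7 in that count is thus a description. Of 15 markers of adipocyte progenitors, DPP4+ cells had more of 3 and less of 8 at 22 °C. Markers of other cells that the sort could hold moved between the groups as follows, and their part in the HOX values was not tested. Markers of mature adipocytes, with 12 genes of which 11 were tested, summed to 4591 to 5945 counts in DPP4+ cells at 22 °C, 2140 to 3315 in the cold, and 4112 to 7906 and 8682 to 13589 in DPP4- cells. Of the 11, 5 fell in cold DPP4+ cells, 5 rose in cold DPP4- cells and 10 had a negative difference of the cold effects. While these sums overlapped between the populations at 22 °C, DPP4+ cells then had more of 8 of the 11 and less of 2 (median log2 difference 1.58). Fabp4 went the other way from most, at 1222 ± 130 in DPP4+ and 5138 ± 1474 in DPP4- cells at 22 °C. In the cold, DPP4+ cells had more of 3 and less of 5 (median 0.22). Pericyte and smooth muscle markers (12 of 12 tested) summed to 9396 to 12170 and 4291 to 7171 in DPP4+ cells and to 4220 to 5686 and 5124 to 6850 in DPP4- cells, with 2 rising and 5 falling in cold DPP4+ cells. By gene, DPP4+ cells at 22 °C had more of 4 of the 12 and less of 6 (median log2 difference -0.19), unlike the sums. Schwann cell markers (6 of 8 tested) were at 4263 to 4990 and 2443 to 4106 in DPP4+ and 8388 to 10039 and 6614 to 7713 in DPP4- cells. Endothelial markers (12 of 12 tested) were at 2631 to 3351 and 2827 to 4320 in DPP4+ and 1148 to 1617 and 946 to 1507 in DPP4- cells, although DPP4+ cells had less of 8 of the 12 genes and more of 1 at 22 °C. In cold DPP4+ cells 2 of these 12 genes rose and 0 fell (median log2 difference -0.02). Kdr, a receptor of endothelial growth factor, was among the 2 that rose (3.05 ± 0.32 SE). Immune markers (9 of 16 tested) were at 126 to 205 in DPP4+ and 101 to 1233 in DPP4- cells. Mesothelial (2 of 10 tested), epithelial (1 of 10) and skeletal muscle markers (3 of 10) summed to at most 292 in any library. In each list every gene had a read in at least 1 library.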

How the data were processed

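PDGFRb+ cells of inguinal fat were profiled by RNA-seq in 20 libraries, 5 in each of 4 groups. Per the labels, libraries were made with the NEBNext Ultra II kit from total RNA, and the software, per the submitters' processing notes, was DESeq2 1.6.3, featureCounts 1.4.6, HISAT2 2.0.1 and Trim Galore 0.4.1, with the builds GRCm38 and mm10 named. The annotation and the strand setting are not given in the sources used here. The authors deposited 1 table of normalized counts (a signal: gene counts divided by a size factor per library). All its values were whole reads times a constant of the library (100% within 0.1 read), which gave 8.49 to 18.8 M reads per library. Rows without a symbol, 958 genes with 0.0610% to 0.0824% of the reads, were left out.

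Log2 of the normalized count plus 1 was fitted with limma 3.58.1 (R 4.3.3; group means, mean-variance trend, robust) over the 14014 genes with a mean of at least 5, and p-values were adjusted by Benjamini-Hochberg within each of 5 contrasts, with a threshold of 0.05. Fold differences of low genes are understated on this scale; ratios are of mean normalized counts, with a floor of 3 reads over the group, and intervals of ratios with few reads (95%, exact) cover counting error only. "Apart" means that the ranges of the 5 libraries do not overlap. Levels per kb use merged exons of GENCODE vM21. The script was tested on simulated data. Alternatives were edgeR 4.0.16 and DESeq2 1.42.0 on the whole reads, other scalings, pseudocounts and filters, library weights, a replicate block, a fit of only the libraries compared, and leaving out libraries.

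Some genes that these rules name are not reported or drawn here, though they stand in the counts, medians, correlations and sums. All 20 values are given for the other HOX genes with the 4 largest log2 differences past the threshold in each contrast. From other lists the 4 genes with the smallest p were named, plus Dpp4, Pdgfrb and Pdgfra. Gm53 and the levels of Hoxc10 by library were given after their values were seen. The HOX genes and the lists were chosen with earlier results of these data known.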

Additional observations from a re-analysis of the deposited data

Results flagged for a closer look

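The cold effect in DPP4+ cells differed from that in DPP4- cells, by the limma contrast of the cold effects, for 11 HOX genes given here. The log2 difference of the cold effects was -2.55 for Hoxb8, -2.53 for Hoxc13, -1.57 for Hoxb5, -1.12 for Hoxa6, -1.04 for Hoxb3, -0.95 for Hoxb2, -0.91 for Hoxa9, -0.89 for Hoxd4, -0.86 for Hoxa3 and -0.83 for Hoxa7. It was 0.54 for Hoxc6. Over all tested genes 31.4% were called in this contrast, 15.8% positive and 15.6% negative. Hoxb8 and Hoxc13 reached the mean of 5 only through DPP4+ cells, so their differences are a description. They rest on few reads in DPP4- cells, and edgeR and DESeq2 did not call Hoxc13.

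In 3 of the 116 groups of 5 libraries looked at (29 genes in 4 groups), 1 library lay far from the other 4, where chance gives about 1 in 20 groups. Hoxa9 was at 26.2 normalized counts in DPP4+ library 5 at 6 °C. Hoxc10 was at 426 in the same library, the lowest of its group. Hoxb6 was at 15 in DPP4- library 2 at 22 °C.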

How the results depend on the processing

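Of the calls on HOX genes, 18 of 22 between the populations at 22 °C, 15 of 23 at 6 °C, 6 of 13 for cold in DPP4+ cells, 0 of 1 for cold in DPP4- cells and 4 of 12 for the difference of the cold effects were kept under every alternative run. Setting the totals equal gave 9378 higher and 2256 lower genes at 22 °C and 8419 and 2744 at 6 °C, 887 and 221 for cold in DPP4- cells and 1153 positive differences of the cold effects, with 0 and 2 HOX genes lower at 22 °C and 6 °C, 2 HOX genes higher for cold in DPP4- cells and 0 positive in the difference. Signs changed under it for Hoxa3 (0.25) and Hoxc4 (0.34) at 22 °C and for Hoxa5 (0.01) and Hoxc4 (0.36) at 6 °C. Log2 ratios of the HOX sums at 22 °C and 6 °C were then 1.45 and 1.23 for all HOX genes, 1.5 and 0.71 for Hoxa, 2.08 and 1.13 for Hoxb, 1.32 and 1.4 for Hoxc, 1.18 and 0.72 for Hoxd, 1.19 and 0.14 for anterior genes (-0.33 at 6 °C on the deposited scaling), 1.37 and 1.26 for central and 1.68 and 1.49 for posterior genes; these follow from the construction of the scaling.

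HOX genes lower at 22 °C numbered 0 with no filter or with TMM scaling and 1 with a replicate block. At 6 °C quantile normalization left 4 lower. For cold in DPP4+ cells 4 HOX genes rose with DESeq2 or edgeR and 5 with library weights, with only the 10 libraries compared or with quantile normalization, and 18 fell with library weights and 4 with quantile normalization. For cold in DPP4- cells 135 genes rose with library weights and 99 with only the 10 libraries compared, and 2 HOX genes rose with DESeq2 and 0 with only the 10 libraries. In the difference 2 HOX genes were positive with library weights and 5 negative with quantile normalization. The cause was not tested.

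Without single libraries, HOX genes higher and lower numbered 19 to 20 and 0 to 2 at 22 °C, 14 to 16 and 6 to 9 at 6 °C, 2 to 3 and 8 to 13 for cold in DPP4+ cells, 1 to 3 and 0 for cold in DPP4- cells, and 1 to 2 and 10 to 14 in the difference. Genes that rose with cold in DPP4- cells numbered 161 to 376, the fewest without cold DPP4- library 3 and the most without cold DPP4+ library 5. Leaving out cold DPP4- libraries 2 and 5 together, chosen after seeing the data, gave 13 HOX genes higher at 6 °C and 2 positive in the difference. In their deviations from the group means, DPP4+ and DPP4- libraries of the same number correlated at 0.0166 to 0.127 at 22 °C. At 6 °C they correlated at 0.0226 to 0.119. For DPP4+ libraries 2, 3 and 5 at 22 °C and 1, 2, 3 and 5 at 6 °C, the DPP4- library of the same number correlated best. The labels name no pairs and none were modelled within a temperature, so such pairing was not tested. The replicate block joined the libraries of a number over all 4 groups and cannot test it. That block changed no call on a HOX gene other than that of Hoxc4 at 22 °C. Depth limits the 10 untested genes and Hoxc13, Hoxb8 and Hoxb9 in DPP4- cells, which rest on few reads.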
